A study of Mus musculus with 9 samples.

Results

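The hairpin Mir582 gives rise to a pair of mature miRNAs, mmu-miR-582-5p from its 5′ arm and mmu-miR-582-3p from its 3′ arm. Both arms were listed among the 1140 rows of the deposited miRNA table, 1106 of them with the name of a known mouse miRNA, and they were taken as the 2 rows whose names start with mmu-miR-582. They were chosen because earlier results on these samples had shown their levels over the groups, so those levels and the fold changes between groups are given as a description without a test. Small RNA libraries came from the livers of 9 male C57BL/6 mice that were 8 weeks old at the start. The control group (n = 3) was injected with normal saline into the peritoneum for 8 weeks, and the TAA group (n = 3) with thioacetamide (TAA), a compound that injures hepatocytes and leads to liver fibrosis, every 3 days over the same period, and both groups were killed 3 days after the last injection. The recovery group (n = 3) had the same course of TAA and then 8 weeks without it. Recovery and elapsed time therefore cannot be told apart, and no saline group of the later age was analysed here.

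A miRNA hairpin is cut by Drosha and Dicer into a short duplex, and either strand can be loaded into an Argonaute protein. The loaded strand pairs with mRNAs mainly through its seed near the 5′ end and lowers their translation and stability. Reads of the 3′ and 5′ arms therefore report on a shared precursor, while the ratio between them depends only in part on how the strands are selected and retained. A miRNA that lies in an intron may be made from its host transcript or from a transcript of its own. Levels of mature miRNAs do not tell these apart.

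The mature arms are shown because the seeds separate them from other miRNAs, and the hairpin because it places the arms in one precursor. Sequences are from RefSeq on the mouse build GRCm38.p6, written 5′ to 3′ on the plus strand of chromosome 13. Capitals mark bases 2 to 8 in the mature arms.
mmu-miR-582-5p (chr13:109324753-109324774): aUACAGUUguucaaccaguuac
mmu-miR-582-3p (chr13:109324790-109324810): uAACCUGUugaacaacugaac
In the hairpin (chr13:109324744-109324824), capitals mark the mature arms.
Mir582 hairpin: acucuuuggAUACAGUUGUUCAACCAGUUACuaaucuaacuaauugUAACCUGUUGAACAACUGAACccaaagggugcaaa

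The 5p arm has 22 bases and the 3p arm 21, with 15 bases of loop between them. In the fold predicted from the sequence, 16 bases of the 5p arm paired with the 3p arm, and the longest uninterrupted complementary run between the arms was 12 bases. The predicted minimum free energy was -34 kcal/mol. The hairpin is 63.0% A and U, against a median of 48.3% over 1005 mouse hairpins. Bases 2 to 8 of neither arm were shared with another of the 1738 mature entries searched. Over the shorter stretch of bases 2 to 7, 1 listed miRNA matched each arm. They are printed with the shared bases in capitals, to show how far the resemblance goes.
mmu-miR-490-3p: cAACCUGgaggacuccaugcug
mmu-miR-101b-3p: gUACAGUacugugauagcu

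The hairpin lies on the strand of Pde4d (ENSMUSG00000021699.17, chr13:108449948-109953461), which encodes a cyclic AMP phosphodiesterase. Of 20 annotated Pde4d transcripts, 6 span the hairpin, 4 of them protein coding, and in none does it fall in an exon. In the long coding transcripts Pde4d-209 and Pde4d-220 it sits in an intron of 707689 bp, the third and the second intron of those transcripts. In the coding transcripts Pde4d-208 and Pde4d-218 it sits in the first intron. The next exon downstream in all 4 coding transcripts starts 415.563 kb away. Messenger RNA was not analysed here, so no level of Pde4d is given.

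**Figure D1:**
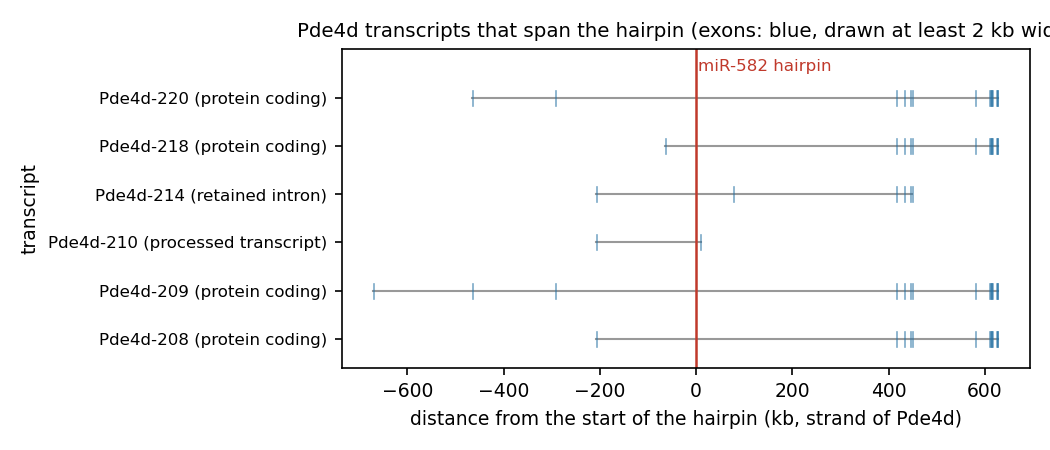
Position of the miR-582 hairpin (red line, at 0 kb) among the 6 Pde4d transcripts that span it. The x axis is the distance from the start of the hairpin in kb along the strand of Pde4d, grey lines are transcripts and blue marks are exons, drawn at least 2 kb wide. The hairpin lies in an intron of every one of the 6.

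The libraries held 9071847 to 12983378 counts over the table. Counts per 1000000 (CPM) are given after scaling by the trimmed mean of M values (TMM), whose factors were 0.739 to 0.792 in control, 1.43 to 1.63 in TAA and 0.766 to 0.887 in recovery livers. Scaling by library totals instead moved the median log2 fold change over all rows by 1.12 for TAA against control livers, by -0.86 for recovery against TAA livers and by 0.18 for recovery against control livers. Values for miR-582 are therefore also given on that scale. One library stood apart. TAA replicate 3 held 67184 counts of miR-1a-3p, a striated muscle miRNA, against 172 and 191 in the other TAA libraries, and 2281 counts of the muscle miRNA miR-133a-3p against 8 and 9. Fold changes of miR-582 with and without that library are given below. The labelled tissue matched its defining miRNA: miR-122-5p, the main hepatocyte miRNA, was at a mean of 266790 CPM in control livers.

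miR-582-3p was nearly undetected in control livers. Its counts were 2, 3 and 3 in control replicates 1 to 3, which is at or below the floor of 3 counts per library. In TAA livers the counts were 256, 346 and 162. In recovery livers they were 14, 26 and 27. The groups did not overlap: every TAA liver was above every recovery liver, and every recovery liver was above every control liver. Such separation is not particular to the arms, and the share of all rows that had it was not counted. For example, miR-199a-5p, at means of 214 CPM in control and 256 CPM in recovery livers, did not overlap between those groups either. On the TMM scale the control livers had 0.194, 0.396 and 0.399 CPM (0.330 ± 0.117, SD, n = 3). The TAA livers had 15.8, 23.4 and 10.9 CPM (16.7 ± 6.29, SD, n = 3), and the recovery livers 1.5, 2.39 and 2.47 CPM (2.12 ± 0.541, SD, n = 3). Ranked by mean CPM among the 1140 rows, the arm stood at position 466 in control, 198 in TAA and 334 in recovery livers, so even at its highest it was a miRNA of modest level.

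miR-582-5p was less abundant and followed the same order. Its counts were 5, 1 and 1 in control livers, 88, 110 and 54 in TAA livers and 6, 11 and 7 in recovery livers. Again the groups did not overlap, but the lowest recovery liver (6 counts, 0.641 CPM) was close to the highest control liver (5 counts, 0.486 CPM). The means were 0.250 ± 0.204 CPM in control, 5.49 ± 1.90 CPM in TAA and 0.764 ± 0.213 CPM in recovery livers (SD, n = 3 each). Its rank was 501, 275 and 413. Within the TAA group, replicate 2 was highest and replicate 3 lowest for both arms. The library with the muscle miRNAs was thus also the TAA library with the least miR-582, and without it the fold changes of both arms were larger, as given with the fit across all rows.

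**Figure D2:**
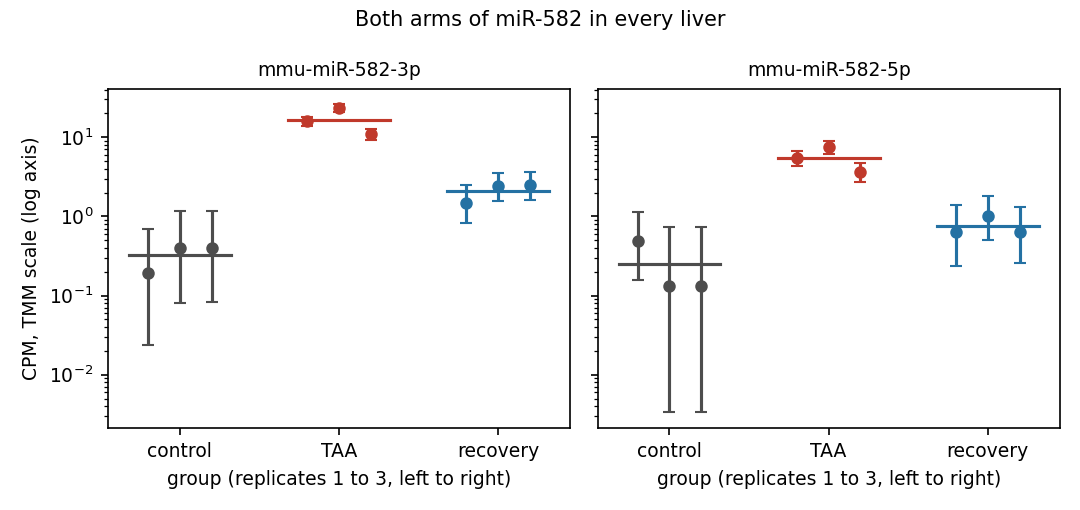
CPM of miR-582-3p (left) and miR-582-5p (right) in each of the 9 livers on a log axis, TMM scale. Points are livers with exact 95% Poisson intervals for counting error, and horizontal lines are group means (0.330, 16.7 and 2.12 CPM for 3p, and 0.250, 5.49 and 0.764 CPM for 5p). TAA livers lie above recovery livers for both arms. For 5p the interval of every control liver overlaps that of every recovery liver. For 3p only recovery replicate 1 (0.818 to 2.51 CPM) overlaps control livers, namely replicates 2 and 3 (upper bounds 1.16 and 1.17 CPM).

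Because so few reads stand behind the control group, folds are given as ratios of summed counts with exact 95% intervals. These intervals cover counting error only and leave out the spread between mice. Reads were counted without molecular identifiers, so repeated copies of a molecule are not told apart and the intervals may be too narrow even for that. For miR-582-3p, TAA livers had 764 counts in all and control livers 8, a 52.8-fold higher level on the TMM scale (26.6 to 123). The level was 7.74-fold lower in recovery than in TAA livers (6.02 to 10.1). It was 6.82-fold higher in recovery than in control livers (3.27 to 16.4). The recovery level of the arm lay between its control and its TAA level. For miR-582-5p, with 252 counts in TAA and 7 in control livers, the level was 19.9-fold higher in TAA (9.51 to 49.98). It was 7.12-fold lower in recovery than in TAA livers (4.68 to 11.3), and 2.79-fold higher in recovery than in control livers (1.17 to 7.67). The last of these rests on 24 against 7 counts. With library totals in place of TMM the rise in TAA was 107-fold for 3p and 40.4-fold for 5p, the fall after withdrawal 14.3-fold and 13.1-fold, and the excess over control 7.53-fold and 3.08-fold. All 6 folds kept their direction under both scalings.

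The fit across all rows placed the arms among the other miRNAs, although fitted fold changes of miRNAs this scarce in 1 group depend on the prior count and are no bounds. DEMs (differentially expressed miRNAs) were called in edgeR's quasi-likelihood test when the false discovery rate (FDR) was under 0.05 and the level differed by 2-fold or more. In TAA vs control, 420 rows were tested and 25% of them were called up and 16.7% down. Both arms were among those up, with log2 fold changes of 5.59 ± 0.47 (SE) for 3p and 4.21 ± 0.55 (SE) for 5p, at positions 3 and 9 of 420 from the top. In recovery vs TAA, 10.2% of 440 rows were called up and 14.5% down. Both arms were among those down, with -2.99 ± 0.38 (SE) and -2.85 ± 0.40 (SE), at positions 430 and 425 of 440. Since these contrasts chose the arms, nothing is read from the calls. Without TAA replicate 3, the log2 fold changes of 3p and 5p were 5.84 and 4.46 in TAA vs control, and after withdrawal they were -3.19 and -3.04 against the remaining TAA livers.

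In recovery vs control, 391 rows were tested, of which 10.5% were called up and 0.767% down. miR-582-3p was among those up, with a log2 fold change of 2.66 ± 0.48 (SE), position 32 of 391. It passed the filter on low counts through its recovery livers (14, 26 and 27 counts, against 2, 3 and 3 in control). The arms were chosen by their levels over the groups, recovery included, so nothing is read from this call either. miR-582-5p did not pass the filter on low counts in that comparison and was not tested. When it was included, its log2 fold change was 1.40 ± 0.81 (SE) without the filter and 1.47 ± 0.61 (SE) in a fit of all 9 samples, and DESeq2 gave 1.52 ± 1.08 (SE), with no call in any of the 3.

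The 41 miRNAs called up in recovery vs control were mostly from elsewhere in the genome. Of them, 38 lie between Meg3 and Mirg (chr12:109541001-109749460), the imprinted Dlk1-Dio3 domain that holds a large miRNA cluster. The other 3 were miR-582-3p, miR-200a-3p of the biliary epithelium and the unnamed row novel_370, which has no position in the tables used. The miRNAs next to miR-582-3p in the order of log2 fold change were miR-376b-5p (2.79) and miR-496a-3p (2.67) above it, and miR-382-3p (2.65) and miR-369-3p (2.64) below it, all from the Meg3 to Mirg cluster. Of these, miR-369-3p also fell part of the way, from 4.84 ± 2.83 CPM in TAA to 2.36 ± 1.02 CPM in recovery livers (control 0.398 ± 0.399 CPM). The courses of the others differed more from that of miR-582-3p. miR-382-3p was at 1.39 ± 0.741 CPM in control, 9.02 ± 4.29 CPM in TAA and 8.82 ± 2.57 CPM in recovery livers, so it stayed near its TAA level. miR-376b-5p was higher in recovery (3.72 ± 0.547 CPM) than in TAA livers (1.84 ± 0.979 CPM), whereas miR-582-3p had lost most of its rise (SD, n = 3 for each).

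**Figure D3:**
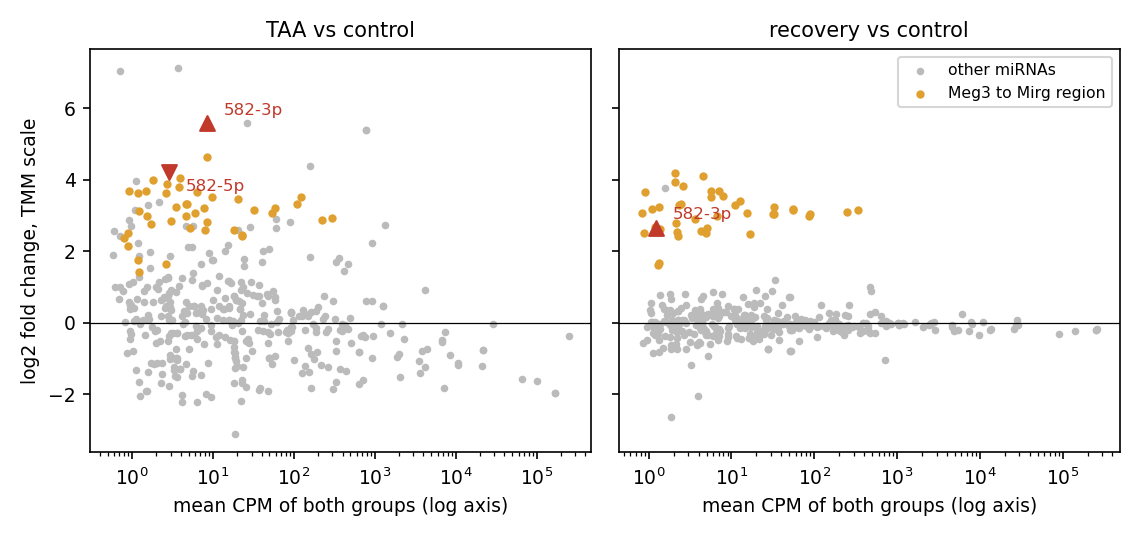
Log2 fold change (TMM scale) against the mean CPM of both groups (log axis) for each miRNA tested in TAA vs control (left, 420) and recovery vs control (right, 391). Triangles are the arms of miR-582, orange points miRNAs of the Meg3 to Mirg region and grey points other miRNAs; miR-582-3p was at 5.59 and 2.66, and miR-582-5p was at 4.21 on the left and was not tested on the right.

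The level left after withdrawal was expressed as the recovery level minus the control mean, in percent of the rise from the control mean to the TAA mean. It was 11.0% ± 3.31 for miR-582-3p (SD over 3 recovery livers, from 7.14% to 13.1%). For miR-582-5p it was 9.80% ± 4.07 (7.46% to 14.5%). On this linear scale the arms lay within each other's spread over the recovery livers, an SD that leaves out the spread of the control and TAA livers. The value depends on the scale: with library totals it was 6.03% and 5.42%, and on the scale of log2(CPM + 1) it was 33.2% and 21.4%. Without TAA replicate 3 it was 9.30% and 8.32%. The same measure was computed for the 105 DEMs that were up in TAA vs control, a set in which the miR-582 arms are included. Its median was 23.8% over all 105, 95.2% over the 40 in the Meg3 to Mirg region and 10.6% over the other 64 known miRNAs. The unnamed row novel_370, which could not be placed, had 155% left and is not counted with either. Of those 64, 35 had less left than miR-582-3p and 29 had less left than miR-582-5p, and 9 were at or below the control mean. On the linear TMM scale the share of the rise left for miR-582 was thus in the middle of the range for known miRNAs not placed in the cluster. For the other DEMs the level left was not computed with library totals or on the log2(CPM + 1) scale. In absolute terms, 1.79 CPM of 3p and 0.514 CPM of 5p were left above the control means.

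The ratio between the arms was not used to choose them, needs no library scaling and could be tested. The 3p arm took 74.4%, 75.9% and 75.0% of the miR-582 counts in TAA replicates 1 to 3, although their total counts ranged from 216 to 456. In recovery livers it took 70%, 70.3% and 79.4%, and in control livers 28.6%, 75% and 75%, the first of them from 7 counts in all. Summed by group, the 3p share was 53.3% in control (8 of 15 counts, exact 95% interval 26.6% to 78.7%), 75.2% in TAA (764 of 1016, 72.4% to 77.8%) and 73.6% in recovery livers (67 of 91, 63.3% to 82.3%). The intervals of the summed shares pool the livers of a group and, like those of the folds, leave out the spread between mice. The 3p arm was the more abundant in every TAA and recovery liver.

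On the log2 scale with 0.5 added to each count, the ratio of 3p to 5p was 0.44 ± 1.36 in control, 1.59 ± 0.06 in TAA and 1.41 ± 0.40 in recovery livers (SD, n = 3). The difference of TAA from control was 1.15 (exact two-sided permutation test, p = 0.1, adjusted p = 0.3 over 3 comparisons). It was -0.17 for recovery against TAA (exact permutation p = 0.4, adjusted p = 0.6) and 0.98 for recovery against control (exact permutation p = 0.6, adjusted p = 0.6). With 3 livers against 3 the smallest p this test allows is 0.1, so no difference could have passed 0.05. The difference from control rests largely on 1 liver: without control replicate 1, whose miR-582 counts were 2 and 5, it was 0.36. The test therefore says nothing for or against a shift in arm use, and the unequal folds of the arms in TAA vs control (52.8 and 19.9) rest on 8 and 7 control counts.

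**Figure D4:**
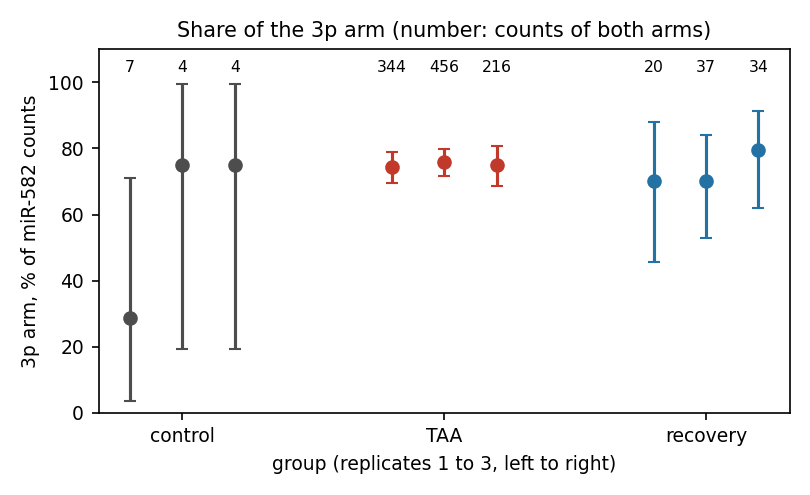
Share of the 3p arm in the counts of both arms of miR-582 (y axis, percent) in each of the 9 livers, with exact 95% binomial intervals. The number above each point is the count of both arms, from 4 to 456. The TAA livers lie between 74.4% and 75.9%, inside the intervals of control replicates 2 and 3 and above the upper bound of control replicate 1 (71.0%).

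Set beside other hairpins, the read counts of miR-582 were more evenly divided between its arms than those of most. Among 134 hairpins with at least 20 counts of each arm over the TAA livers, the median absolute log2 ratio of the arms was 3.08, and that of miR-582 was 1.60, with 42 hairpins at or below it. The 3p arm was the more abundant one in 55 of the 134. From TAA to recovery livers the log2 ratio of summed counts moved by 0.12 for miR-582, against a median of 0.34 over 113 hairpins, 22 of which moved by no more.

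The levels of the arms on the scale of log2(CPM + 1) had a Pearson r of 0.978 with each other over the 9 livers, which share libraries and scaling factors. Of 225 other known miRNAs with a mean of at least 10 CPM, the profile most like both arms was that of miR-12182-3p (r = 0.973 with 3p and 0.980 with 5p). Its counts were 48, 48 and 38 in control, 398, 485 and 283 in TAA and 64, 83 and 67 in recovery livers, so TAA replicate 2 was again highest and replicate 3 lowest of the TAA livers. It reached 25.4 ± 6.91 CPM in TAA livers and was at 5.35 ± 0.871 CPM in control and 6.87 ± 0.743 CPM in recovery livers. The others nearest to 3p were miR-214-3p (r = 0.971), a miRNA of the Dnm3os transcript of mesenchymal cells, miR-200b-3p (0.968) and miR-200a-5p (0.965), epithelial miRNAs that in liver mark the bile ducts, and miR-132-5p (0.961). Those nearest to 5p were miR-34a-5p (0.972), which is transcribed in response to p53, miR-214-3p (0.962), the epithelial miR-429-3p (0.960) and miR-200b-3p (0.9498).

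These 7 miRNAs were all up in TAA vs control, and all but miR-132-5p (log2 fold change -0.997, just short of the 2-fold limit) were called down in recovery vs TAA. Their log2 fold changes in TAA vs control ran from 1.13 for miR-132-5p to 2.90 for miR-200a-5p, below the 5.59 and 4.21 of the miR-582 arms. After withdrawal the level left was 3.47% of the rise for miR-34a-5p, 7.55% for miR-12182-3p, 11.7% for miR-214-3p, 13.4% for miR-132-5p, 13.5% for miR-200a-5p, 13.9% for miR-429-3p and 14.5% for miR-200b-3p. On this linear scale the arms of miR-582 lay inside that range. On the log2(CPM + 1) scale, where 33.2% of 3p and 21.4% of 5p was left, the level left of these 7 miRNAs was not computed. With 9 livers in 3 groups each r includes the step between the groups, and it is given as a description.

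**Figure D5:**
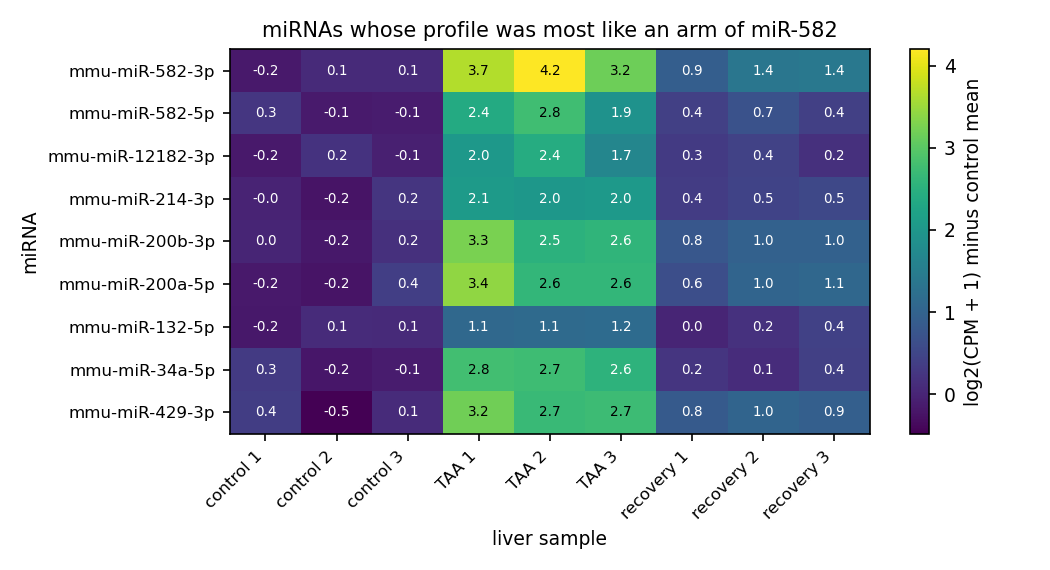
Level of the miR-582 arms and of the 7 miRNAs with the most similar profiles (rows) in each of the 9 livers (columns), as log2(CPM + 1) minus the control mean. Each cell prints its value and the color follows it; the TAA columns are highest in every row, and the step is largest for miR-582-3p.

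The miRNAs with which the arms share 6 seed bases moved in different ways. miR-490-3p was scarce and too low to test, with counts of 2, 1 and 0 in control, 21, 7 and 14 in TAA and 4, 7 and 4 in recovery livers. By raw count its TAA livers were above the other groups, except that the TAA liver with 7 counts equalled 1 recovery liver. On the TMM scale that TAA liver was below that recovery liver, since its scaled library size was larger (14816754 against 10887611). miR-101b-3p, which shares bases 2 to 7 with the 5p arm and belongs to a family known to target Ezh2, was a highly expressed miRNA. It fell from 10941 ± 1720 CPM in control to 3258 ± 428 CPM in TAA livers (log2 fold change -1.84, edgeR FDR 0.000114). It rose again to 8779 ± 34.8 CPM in recovery livers (1.41 against TAA, edgeR FDR 0.000283), where its log2 difference from control was -0.36 (edgeR FDR 0.0888). Its mean was above that of miR-582-5p in every group, and it moved in the opposite direction.

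Few hairpins lie near that of miR-582. Within 5 Mb, the tables used place Mir1904, Mir449c and Mir449a, and only miR-449a-5p of these was listed, with 7 counts over all 9 libraries and at most 3 in one. It gave no course to set beside that of miR-582.

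Lists of fibrosis miRNAs put the course of miR-582 beside that of better known ones. Of 9 miRNAs widely reported to rise in liver fibrosis or in activated stellate cells, 6 were up in TAA vs control and none were down, where 25% of all rows were up. After withdrawal 5 were down against the TAA group, where 14.5% of all rows were, with median log2 fold changes of 1.65 and -1.23 against 0.11 and -0.12 over all rows tested. Among them miR-34a-5p changed by 2.66 and miR-214-3p by 2.003 in TAA vs control, while miR-21a-5p (-0.36) and miR-221-3p (0.43) were not called. Of 8 miRNAs reported to restrain fibrosis or to mark the mature liver, 7 were down in TAA vs control (16.7% of all rows), and 5 were up after withdrawal against the TAA group (10.2% of all rows), with medians of -1.38 and 1.17. They included miR-29c-3p, a repressor of collagen mRNAs (-2.18 in TAA vs control), and miR-122-5p (-1.96). In recovery vs control none of the 9 and none of the 8 was called, with medians of 0.22 and -0.20 against -0.03 over all rows tested. In that comparison 10.5% of all rows were up and 0.767% down. Lists this short would hold few calls at those shares, so nothing is read from their absence.

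Markers of some liver cell types also differed between the groups, with 25% of all rows up and 16.7% down in TAA vs control, and 10.2% up and 14.5% down in recovery vs TAA, as the background. All 5 biliary miRNAs were up in TAA vs control and all were down again after withdrawal, with medians of 2.24 and -1.37 on the log2 scale, and 1 biliary miRNA was still up in recovery vs control. Their summed level was 582.1 to 764 CPM in control, 3331 to 5534 CPM in TAA and 1240 to 1415 CPM in recovery livers, without overlap. Of 6 mesenchymal miRNAs 4 were up in TAA vs control and 4 fell after withdrawal, with medians of 1.55 and -1.26, although their sum, which miR-143-3p dominates, overlapped between groups (25487 to 31117, 18053 to 39530 and 21880 to 35810 CPM). The 3 hepatocyte miRNAs were all down in TAA vs control, and 2 rose after withdrawal, with medians of -1.58 and 1.196. Of 5 leukocyte miRNAs, miR-223-3p of myeloid cells was up in TAA vs control, and 1 of the 5 fell after withdrawal, with medians of 0.74 and -0.75, shares near the background. Neither of the 2 endothelial miRNAs was called in any comparison (medians -0.68 in TAA vs control and 0.59 after withdrawal). Of 3 red cell miRNAs 1 was down in TAA vs control and 1 was down when recovery was set against control, with medians of -1.01 and -1.05. For the latter comparison the background was 10.5% of all rows up and 0.767% down. It also applies to the biliary miRNA that was still up. In bulk liver more cells of a type and more RNA per cell cannot be told apart, and the part of these cell types in the level of miR-582 was not tested.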

How the data were processed

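The authors isolated RNA with TRIzol, made libraries with the NEBNext small RNA kit, sequenced them as single-end reads, filtered these with their own scripts and mapped them to mouse build mm10 and miRBase (Bowtie 1.3.0 per the submitters' processing notes). How reads with several matches were counted is not given in the sources used here, but some rows held equal or nearly equal values. In control livers miR-142a-3p and miR-142b were both at 14.5 CPM, and miR-122-5p and miR-122b-3p at 266790 and 266763 CPM. Library totals may therefore count some reads more than once. The deposited table held raw read counts and a TPM per mature miRNA and mouse, the TPM being the count per 1000000 counts of the column without a length term (largest difference 4.96e-05).

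Counts were scaled by TMM and fitted with edgeR 4.0.16 (R 4.3.3) on the 6 samples of each pair of groups, after filterByExpr with a minimum count of 10, with Benjamini-Hochberg adjustment over all rows tested, with calls at an FDR under 0.05 and a difference of 2-fold or more. p-values of these fits measure the spread between 3 mice a group. The script was tested on simulated data. These had the same spread for every row and smaller changes than those fitted for the arms, so they do not show how the fit performs for the arms. Alternatives were DESeq2 1.42.0 and its size factors, library totals, other filters, a fit of all 9 samples, a replicate block and leaving out each replicate. Count intervals were exact (95%, scipy 1.17.1). Hairpins were folded with ViennaRNA 2.7.2. Of the listed names, 935 were matched to 1738 RefSeq mature entries. Named miRNAs were the arms, the 5 rows with the highest r for each arm, miRNAs sharing seed bases, the 2 miRNAs on either side in the order of recovery vs control, listed miRNAs within 5 Mb, and members of 2 fibrosis and 6 cell type lists. The arms and all lists were chosen with earlier results of these data known. The muscle miRNAs, the Meg3 to Mirg region and the comparison of the level left with other DEMs were added after seeing the values.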

Additional observations from a re-analysis of the deposited data

How the results depend on the processing

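No call of either arm changed its direction under any alternative that tested it. With library totals the log2 fold changes were 6.68 and -3.84 for 3p and 5.29 and -3.70 for 5p in TAA vs control and recovery vs TAA, and the level left was 6.03% and 5.42%; on the log2(CPM + 1) scale it was 33.2% and 21.4%. With library totals 207 DEMs were called in recovery vs TAA, 4 up and 203 down, and the share of calls that were up went from 60% to 98.4% in TAA vs control, from 41.3% to 1.93% in recovery vs TAA and from 93.2% to 95.9% in recovery vs control. With only rows of a mean of at least 10 CPM, 85, 60 and 13 DEMs were called in the comparisons of TAA with control, of recovery with TAA and of recovery with control, since fewer rows were tested; 5p was then not tested, nor was 3p in recovery vs control.

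Leaving out each replicate, the log2 fold change of 3p ran from 5.23 to 5.84, from -3.19 to -2.59 and from 2.34 to 2.87 in the 3 comparisons, that of 5p from 3.90 to 5.20 and from -3.09 to -2.49, the level left from 9.30% to 13.8% and from 7.46% to 12.02%, the arm ratio from 0.36 to 1.54, from -0.41 to -0.05 and from 0.19 to 1.37, and the DEMs from 158 to 187, 93 to 132 and 37 to 46. Without control replicate 1, which held 5 of the 7 control counts, the 5p value in TAA vs control was 5.20. Same-numbered replicates did not deviate together (r from -0.24 to 0.24). With a replicate block the 3p values were 5.55, -2.95 and 2.62 and the 5p values 4.20 and -2.83, and no call of an arm changed. Depth limits mainly the control level, 8 and 7 counts over 3 libraries.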
